A study of Mus musculus with 18 samples.

Results

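RNA-Seq of whole embryonic mouse lungs, collected 14.5 days after mating (14.5 days post coitus, dpc), was used to follow the genes that make sterols and fatty acids. The 33 genes were chosen by symbol, with earlier results of these data known. They were 20 of sterol synthesis and its control and 13 of fatty acid synthesis, out of 23420 rows in each table. Of these, 32 were found by symbol and Msmo1 by its older symbol Sc4mol, and all 33 passed the filter on low values in each line. In 3 lines a gene was inactivated in the lung epithelium. Deficient lungs were Rptor f/f; ShhCre/+, Tfam f/f; ShhCre/+ or Cox10 f/f; ShhCre/+. Control lungs were littermates carrying Rptor f/+; ShhCre/+, Tfam f/+; ShhCre/+ or Cox10 f/+; ShhCre/+, so that the controls also carried the Cre allele and 1 floxed allele. ShhCre is active in the lung epithelium, and the other cells of the lung keep the gene. Raptor, the product of Rptor, belongs to mTOR complex 1 (mTORC1). Tfam keeps and transcribes mitochondrial DNA, and Cox10 makes heme O, from which the heme A of cytochrome c oxidase is formed. There were 3 deficient and 3 control lungs in each line, 18 in all, from embryos of both sexes.

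Cholesterol is built from acetyl-CoA through mevalonate, farnesyl diphosphate and squalene, and the first sterol, lanosterol, is then trimmed to cholesterol. Fatty acids are built from the same acetyl-CoA by carboxylation and repeated condensation, and are then lengthened by elongases and given double bonds by desaturases. Most of these genes are switched on by the sterol regulatory element binding proteins (SREBPs), which are released from the endoplasmic reticulum when sterols are scarce. mTORC1 is known to raise SREBP activity. In the developing lung these lipids serve membranes and, later, surfactant.

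Values are normalised read counts, that is, reads per gene scaled by each sample's size factor. They summed to between 27727200 and 29611100 per lung, and the lowest value of any member in any lung was 193, for Acss2. The values of the targeted genes overlapped between control and deficient lungs in each line and so did not check the labels. The cause was not tested. Rptor lay between 2197 and 2298 in control lungs and between 1986 and 2442 in Rptor-deficient lungs. Tfam lay between 1057 and 1185 in control and between 939.9 and 1107 in Tfam-deficient lungs, and Cox10 lay between 753 and 824 in control and between 743 and 829 in Cox10-deficient lungs. Cox10-deficient replicate 3 stood apart from the other deficient lungs of its line in marker genes, and values of the Cox10 line without it are given beside the results. Fewer cells of a type and less RNA per cell cannot be told apart in whole lungs. Nothing states whether replicate samples were single embryos, so that p-values measure the spread between these samples.

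Levels of the members differed widely. Per kilobase of exon, the highest member in the control lungs of the Rptor line was Scd2, a stearoyl-CoA desaturase, with 6048 normalised reads per kilobase, and the lowest was Acss2, an acetyl-CoA synthetase, with 22.4. The same genes were highest and lowest in the control lungs of the Tfam line, at 4583 and 23.9, and of the Cox10 line, at 6384 and 22.0. Scd1, the neighbour of Scd2 on chromosome 19 and a close relative, stood at 118, 127 and 177 normalised reads per kilobase in the controls of the Rptor, Tfam and Cox10 lines. How reads shared by such relatives were counted is not given in the sources used here, so the split between Scd1 and Scd2 is uncertain. The median over the 20 sterol genes lay between 348 and 403 normalised reads per kilobase in the controls of the 3 lines, and the median over the 13 fatty acid genes between 511 and 750.

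In Rptor-deficient lungs the sterol genes were lower. All 20 had a negative log2 fold change, 10 of 20 fell past the threshold and none rose. The threshold was an adjusted p below 0.05 in limma, adjusted over all genes tested in the line. By comparison, 18.2% of all genes tested in this line were called lower and 16.6% higher. The median log2 fold change of the sterol genes was -0.36, with a range from -0.84 to -0.01, against 0.01 over all genes tested. In 11 of 20 sterol genes every deficient lung was below every control lung, which held for 26% of all genes tested. Fold changes are differences of log2(value + 1), deficient minus control, and are given ± SE with n = 3 lungs per group.

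**Figure D1:**
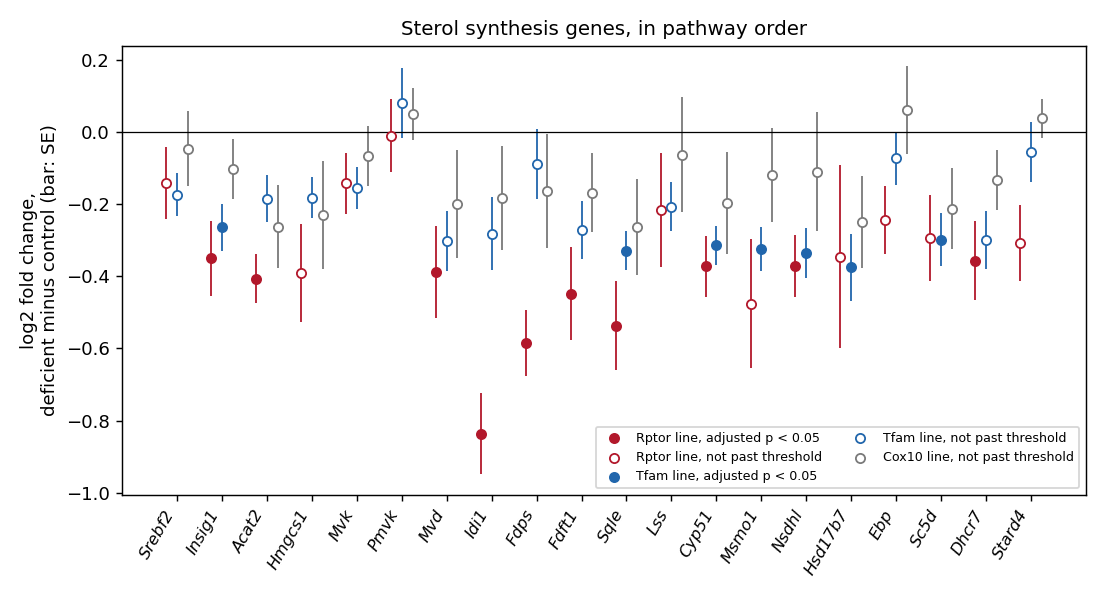
Log2 fold change (deficient minus control, y axis) of the 20 sterol genes in pathway order (x axis), with bars for the SE, in the Rptor (red), Tfam (blue) and Cox10 (grey) lines; filled points passed an adjusted p of 0.05. Red points are filled for 10 genes, blue points for 7 genes and grey points for none, and Idi1 in the Rptor line is the lowest point at -0.84.

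Among the regulators, Srebf2, which encodes the SREBP that favours sterol genes (chr15:82147269-82205379, GRCm38.p6), had values of 6626, 6002 and 5796 in control lungs and 6520.3, 5322 and 4949 in Rptor-deficient lungs. The groups overlapped, and the log2 fold change of -0.14 ± 0.10 did not pass (adjusted p = 0.305). Insig1 encodes the protein that holds SREBPs in the endoplasmic reticulum and is itself an SREBP target. Its values were 1812, 1703 and 1381 in control lungs and 1271, 1363 and 1187 in deficient lungs. No deficient lung reached the control lungs, and Insig1 fell (log2 fold change -0.35 ± 0.10, adjusted p = 0.0309).

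The largest fall was in the mevalonate segment, in Idi1, the isomerase that makes the second 5-carbon building block (chr13:8885606-8892396). Its values were 1007, 1067 and 814 in control lungs and 489, 562 and 557 in Rptor-deficient lungs. The deficient mean was 55.7% of the control mean, with no overlap between the groups (log2 fold change -0.84 ± 0.11, adjusted p = 0.00105). Fdps, which joins these units to farnesyl diphosphate, had 1696, 1573 and 1556 in control and 1219, 1055 and 957 in deficient lungs (log2 fold change -0.58 ± 0.09, adjusted p = 0.00207). Here too the groups were apart. Acat2 and Mvd of this segment also fell, while Hmgcs1, Mvk and Pmvk did not pass, so that 4 of 7 genes were called lower. Pmvk, a kinase, was the member closest to 0, at -0.01 ± 0.10.

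From squalene to cholesterol, 5 of 10 genes were called lower and all 10 were negative, with a median of -0.36. Sqle, the squalene epoxidase and a rate-limiting step, had values of 3399.7, 2849 and 2586 in control lungs and 2298, 2065 and 1729 in deficient lungs (log2 fold change -0.54 ± 0.12, adjusted p = 0.0108). Fdft1, the squalene synthase, had 2463, 1923 and 1839 in control and 1728, 1515 and 1310.3 in deficient lungs (log2 fold change -0.45 ± 0.13, adjusted p = 0.0276). In both genes every deficient lung lay below the lowest control lung. Cyp51 (-0.37), Nsdhl (-0.37) and Dhcr7 (-0.36), which remove methyl groups from lanosterol and close the pathway, were the other 3 genes called. Same-numbered control and deficient lungs deviated together in this line. With the replicate numbers as blocks (replicate block), 4 further sterol genes passed: Hmgcs1 (adjusted p = 0.00152), Msmo1 (adjusted p = 0.00254), Sc5d (adjusted p = 0.0185) and the sterol carrier gene Stard4 (adjusted p = 0.0243), which made 14 of 20. The block raised the share of all genes called from 34.8% to 38.6%.

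The count of 10 depended on single lungs. It was 6 without control replicate 1, without control replicate 2 or without deficient replicate 3, and 14 without deficient replicate 1. The share of all genes called moved in the same direction in these fits, from 34.8% to 25.3%, 24.1%, 28.6% and 35.7%. Idi1, Fdps, Sqle, Acat2, Cyp51 and Nsdhl passed under all 16 alternatives run for single members in this line. Insig1 did not pass without control replicate 1, control replicate 2 or deficient replicate 3 (adjusted p up to 0.107). Fdft1 (up to 0.0791) and Dhcr7 (up to 0.116) were also lost without deficient replicate 2, and Mvd (up to 0.141) was lost on leaving out any lung but deficient replicate 1.

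Promoter sequences were searched in every member for which one was held, whatever its change. RefSeq promoters (GRCm38.p6) were held for 26 of the 33 members and not for Fdps, Fdft1, Sqle, Stard4, Scd1, Scd2 and Fads1. In the 250 bases before the start, CCAAT, the letters bound by NF-Y, a partner of SREBPs, was searched on both strands. It was present in 15 of 16 sterol genes, all but Acat2, and in 6 of 10 fatty acid genes, against 37.5% of all 27025 genes in the table. A form of the sterol regulatory element, TCACNCCAC on either strand, was present in 1 of the 26, Hmgcs1, and in 1.22% of all genes. A match is a run of letters and no measure of binding. The 4 sequences are Idi1 (the largest fall), Hmgcs1 (the gene with both motifs), Cyp51 (called lower in both the Rptor and the Tfam line) and Ebp (the sterol gene that moved against the others between lungs). They run 5′ to 3′ on the strand of the gene, with capitals marking CCAAT or its reverse complement ATTGG and, in Hmgcs1, the sterol regulatory element. The intervals are chr13:8885356-8885605 (plus strand) for Idi1, chr13:119690101-119690350 (plus strand) for Hmgcs1, chr5:4104698-4104947 (minus strand) for Cyp51 and chrX:8193513-8193762 (minus strand) for Ebp.
Idi1: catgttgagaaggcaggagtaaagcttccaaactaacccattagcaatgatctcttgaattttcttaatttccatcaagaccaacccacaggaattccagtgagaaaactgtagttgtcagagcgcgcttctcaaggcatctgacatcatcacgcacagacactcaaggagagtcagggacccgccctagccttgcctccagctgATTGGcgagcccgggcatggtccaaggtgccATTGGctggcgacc
Hmgcs1: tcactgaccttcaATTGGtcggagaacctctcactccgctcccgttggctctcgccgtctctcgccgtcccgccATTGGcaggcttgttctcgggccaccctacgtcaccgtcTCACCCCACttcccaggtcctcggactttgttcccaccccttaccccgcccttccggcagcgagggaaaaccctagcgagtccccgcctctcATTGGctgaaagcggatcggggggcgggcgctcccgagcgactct
Cyp51: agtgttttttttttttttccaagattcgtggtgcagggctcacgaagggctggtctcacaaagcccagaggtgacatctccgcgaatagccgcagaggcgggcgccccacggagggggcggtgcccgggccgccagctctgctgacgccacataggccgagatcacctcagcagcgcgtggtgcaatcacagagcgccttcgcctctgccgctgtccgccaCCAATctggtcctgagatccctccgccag
Ebp: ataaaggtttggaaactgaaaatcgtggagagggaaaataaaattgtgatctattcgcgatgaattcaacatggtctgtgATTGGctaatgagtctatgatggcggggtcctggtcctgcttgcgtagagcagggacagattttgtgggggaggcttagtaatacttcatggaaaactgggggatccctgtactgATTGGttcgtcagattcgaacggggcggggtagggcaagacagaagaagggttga
The copies closest to the start began 14 bases before it in Idi1, 45 in Hmgcs1, 29 in Cyp51 and 55 in Ebp, and the sterol regulatory element of Hmgcs1 began 137 bases before it. Ebp held 2 copies of CCAAT, as did Idi1.

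The fatty acid genes were mixed in Rptor-deficient lungs. Of 13 genes, 6 were called lower (Srebf1, Acly, Acaca, Fasn, Elovl5 and Scd2), 1 was called higher (Acss2) and 6 did not pass. The median log2 fold change was -0.22, and 8 of 13 had every deficient lung below every control lung. Over all genes tested in this line 18.2% were called lower and 16.6% higher, and 26% had this separation. Srebf1, which encodes the SREBP that favours fatty acid genes (chr11:60199084-60224186), had values of 2717, 2379 and 2543 in control lungs and 2301, 1926 and 1875 in deficient lungs. The groups did not overlap, and the log2 fold change was -0.33 ± 0.09 (adjusted p = 0.0208).

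**Figure D2:**
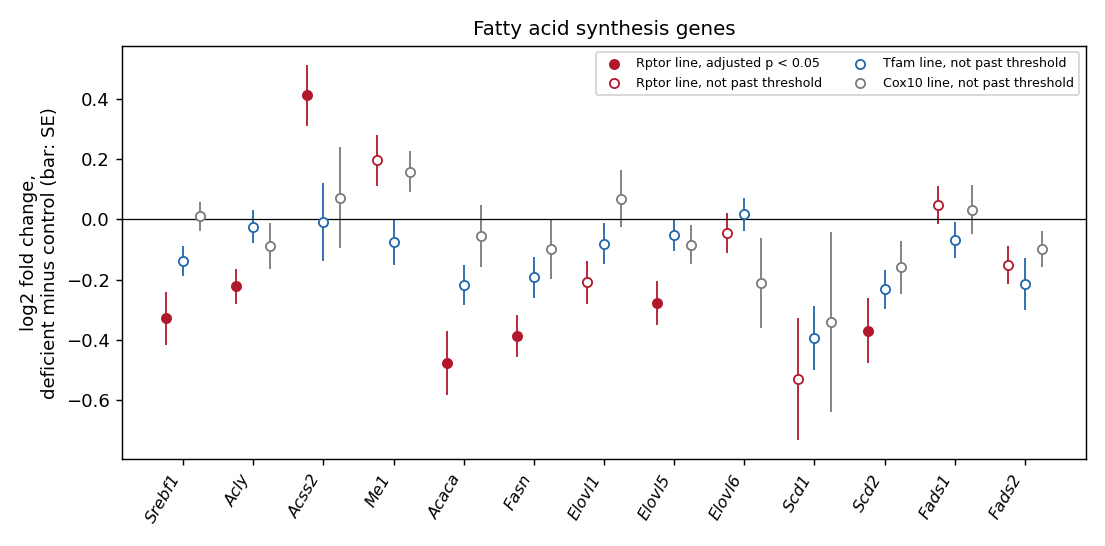
Log2 fold change (deficient minus control, y axis) of the 13 fatty acid genes (x axis), with bars for the SE, in the Rptor (red), Tfam (blue) and Cox10 (grey) lines; filled points passed an adjusted p of 0.05. Filled points are found in the Rptor line only, 6 below 0 and Acss2 above 0 at 0.41.

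Acaca, the acetyl-CoA carboxylase that commits acetyl-CoA to fatty acids, had values of 3583, 3881 and 3533 in control lungs and 3162, 2443 and 2357 in Rptor-deficient lungs (log2 fold change -0.48 ± 0.11, adjusted p = 0.00948). Fasn, the synthase that builds palmitate, had 12635, 11863 and 10984 in control and 9676, 8943 and 8491 in deficient lungs (log2 fold change -0.39 ± 0.07, adjusted p = 0.0039). In both genes the groups were apart. Acss2, which makes acetyl-CoA from acetate, went the other way, with 219, 225 and 239.7 in control lungs and 306, 319.9 and 286 in deficient lungs (log2 fold change 0.41 ± 0.10, adjusted p = 0.0148). Every deficient lung was above every control lung. Acly, which makes acetyl-CoA from citrate, fell (-0.22 ± 0.06, adjusted p = 0.0192).

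Of the desaturases, Scd2 had values of 34029, 33742 and 31369 in control lungs and 30827, 23596 and 22957 in Rptor-deficient lungs (log2 fold change -0.37 ± 0.11, adjusted p = 0.0281). Deficient replicate 1 lay close to the lowest control lung, and the other deficient lungs were far below. Scd1 had 677, 549 and 502 in control and 556, 329.8 and 337 in deficient lungs, with the same replicate inside the control range. Its log2 fold change of -0.53 ± 0.20 did not pass (adjusted p = 0.0729), and passed with the replicate block (adjusted p = 0.00707). Fads1 (0.05) and Fads2 (-0.15), the desaturases of polyunsaturated fatty acids, did not pass. Among the elongases Elovl5 fell (-0.28), while Elovl1 (-0.21) and Elovl6 (-0.05) did not pass. The count of 7 fatty acid genes was 2 without control replicate 1, 3 without deficient replicate 2 or deficient replicate 3, and 5 to 8 on leaving out each of the other lungs. The share of all genes called was 25.3% without control replicate 1, 28.3% without deficient replicate 2 and 28.6% without deficient replicate 3, against 34.8% with every lung. Acaca and Fasn passed in each of these fits. Acss2 was lost without control replicate 1 or deficient replicate 2 (adjusted p up to 0.0533), Acly without control replicate 1, control replicate 3 or deficient replicate 3 (up to 0.0695), Srebf1 without those or deficient replicate 2 (up to 0.0759), and Elovl5 (up to 0.07) and Scd2 (up to 0.091) without control replicate 1, control replicate 2, deficient replicate 2 or deficient replicate 3.

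**Figure D3:**
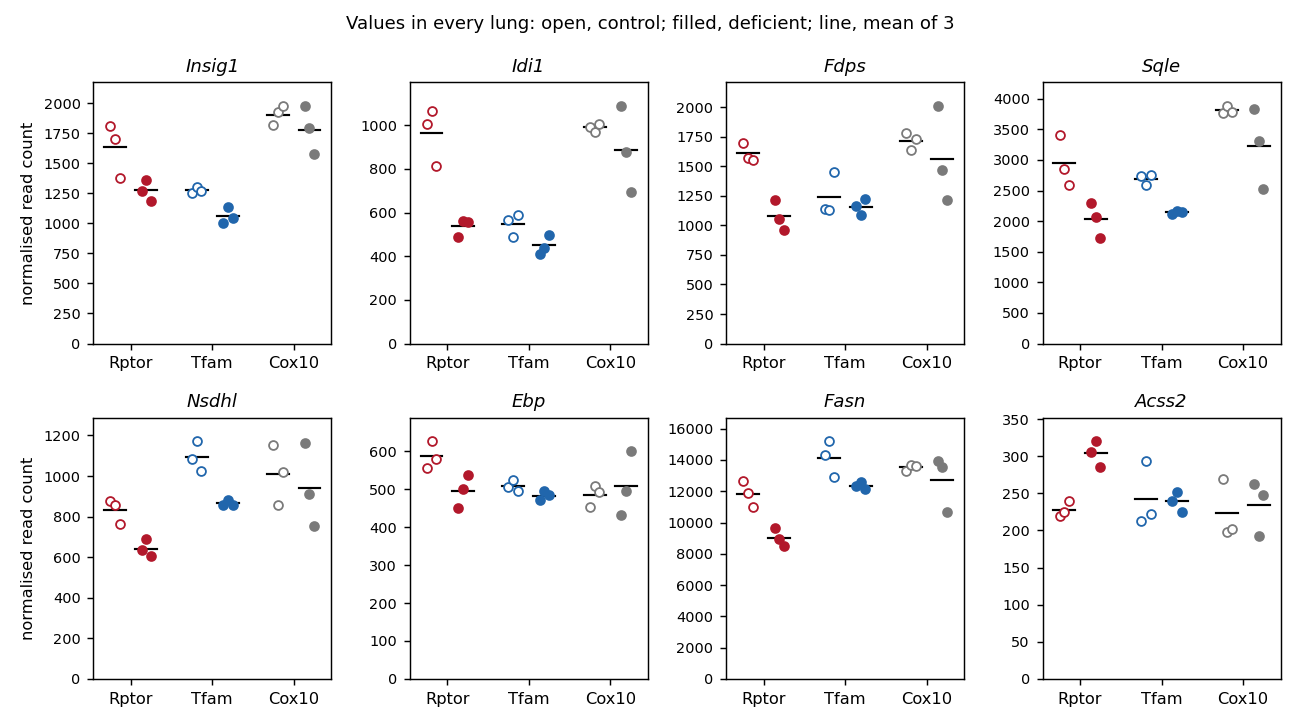
Normalised read count (y axis, from 0) of 8 members in every lung of the Rptor, Tfam and Cox10 lines (x axis); open points are control lungs, filled points deficient lungs and black lines the means of 3. In the Rptor line the filled points of Idi1 lie between 489 and 562, all below the open points, while those of Acss2 lie above the open points.

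In Tfam-deficient lungs the sterol genes were lower too, with little spread between lungs. Of 20 genes, 7 were called lower and none higher, 19 were negative, and the median log2 fold change was -0.27, with a range from -0.37 to 0.08. Over all genes tested in this line, 2.63% were called lower and 2.03% higher, and the median was 0.00. In 16 of 20 genes every deficient lung was below every control lung, which held for 11.8% of all genes tested. The genes called were Insig1 and 6 of the 10 genes from squalene to cholesterol (Sqle, Cyp51, Msmo1, Nsdhl, Hsd17b7 and Sc5d). In all 10 of these the groups did not overlap. None of the 7 genes of the mevalonate segment was called, although 5 had an unadjusted p below 0.05, as had 17.4% of all genes tested in this line.

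Hsd17b7, a ketoreductase of sterol demethylation, had values of 659, 772 and 678 in control lungs and 595, 491 and 541 in Tfam-deficient lungs (log2 fold change -0.37 ± 0.09, adjusted p = 0.046). Nsdhl, a dehydrogenase of the same steps, had 1084, 1170.2 and 1024 in control and 857, 882 and 855 in deficient lungs (log2 fold change -0.34 ± 0.07, adjusted p = 0.0188). Both genes separated the groups. Sqle had 2733, 2587 and 2761 in control lungs and 2115, 2158 and 2157 in deficient lungs (log2 fold change -0.33 ± 0.05, adjusted p = 0.00563). Msmo1, the methyl oxidase of sterol demethylation, had 1429, 1352 and 1380.4 in control and 1102, 1072 and 1149.6 in deficient lungs (log2 fold change -0.32 ± 0.06, adjusted p = 0.0112). In both, the 3 deficient lungs lay close together.

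Of the regulators in the Tfam line, Insig1 had values of 1255, 1304 and 1267 in control lungs and 1006, 1136 and 1046 in deficient lungs (log2 fold change -0.26 ± 0.07, adjusted p = 0.0461). Srebf2 had 7558, 7674 and 6990.0 in control and 6704, 6679 and 6306 in deficient lungs, and its log2 fold change, -0.17 ± 0.06, did not pass (adjusted p = 0.146). Srebf1 had 3067, 3089 and 3014 in control and 2792, 2771 and 2771 in deficient lungs, and its -0.14 ± 0.05 did not pass either (adjusted p = 0.182). In all 3 regulators every deficient lung was nevertheless below every control lung.

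No fatty acid gene was called in the Tfam line with limma or edgeR, while DESeq2 called 2 of 13, against 5.61% of all genes. An unadjusted p below 0.05 in limma was found for 6 of 13, against 17.4% of all genes. The median log2 fold change was -0.08. The members with the smallest p were Scd1 and Scd2. Scd1 had values of 703, 620.5 and 543 in control lungs and 513, 425 and 479 in deficient lungs (log2 fold change -0.39 ± 0.11, adjusted p = 0.0676). Scd2 had 26269, 25098 and 23754 in control and 20842, 21078 and 22008 in deficient lungs (log2 fold change -0.23 ± 0.07, adjusted p = 0.0767). In both the groups were apart. Acss2, higher in the Rptor line, had a log2 fold change of -0.01 ± 0.13 here.

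The Tfam counts also rested on single lungs. The sterol count was 9 without control replicate 3, between 2 and 4 without any of the other lungs, and lowest without deficient replicate 2. The fatty acid count was 5 without control replicate 3 and 0 without any of the others. Of all genes, 4.66% were called with every lung, 7.46% without control replicate 3 and 2.41% to 3.31% without each of the others. With all 18 lungs in a single fit, no sterol gene passed in the Tfam line, where 2.70% of all genes did. Sqle and Cyp51 passed under each of the other 15 alternatives. Insig1 and Sc5d each passed under 7 of the 16, Hsd17b7 under 8, Nsdhl under 10 and Msmo1 under 13.

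In Cox10-deficient lungs no member passed with limma, edgeR or DESeq2, and none had an unadjusted p below 0.05 in limma, against 13% of all genes. In this line limma called 0.335% of all genes tested lower and 0.141% higher. The share called in either direction was 0.455% with edgeR and 2.26% with DESeq2. The sterol genes had a median log2 fold change of -0.15, with 17 of 20 negative, and the fatty acid genes a median of -0.08. In 0 of 20 sterol genes and 1 of 13 fatty acid genes (Scd2) was every deficient lung below every control lung, against 10.8% of all genes tested. The deficient lungs differed widely from each other.

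Acat2, a thiolase that starts the pathway, had values of 2649, 2444 and 2709 in control lungs and 2446, 2339 and 1777 in Cox10-deficient lungs (log2 fold change -0.26 ± 0.12, adjusted p = 0.389). Sqle had 3762, 3880.3 and 3791 in control and 3831, 3311 and 2522 in deficient lungs (log2 fold change -0.26 ± 0.13, adjusted p = 0.439). Deficient replicate 1 was within or near the control range in both, and deficient replicate 3 was far below it. Replicate 3 also stood apart in cell type markers, as described with the markers. Insig1 showed this order as well, with 1813, 1923 and 1975 in control and 1974, 1791 and 1574 in deficient lungs (log2 fold change -0.10 ± 0.08, adjusted p = 0.61). Srebf2 had 7598, 6963 and 7223 in control and 8275, 6886 and 6083 in deficient lungs (log2 fold change -0.05 ± 0.10, adjusted p = 0.859).

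Srebf1 had 2471, 2427 and 2539 in control lungs and 2595, 2407 and 2494 in Cox10-deficient lungs (log2 fold change 0.01 ± 0.05, adjusted p = 0.936), with the smallest SE among the members in this line. Me1, the malic enzyme that supplies NADPH, had 999, 1096 and 1100.3 in control and 1131, 1162 and 1277 in deficient lungs (log2 fold change 0.16 ± 0.07, adjusted p = 0.388). Scd2 had 34955, 34612 and 35081 in control and 34398, 32396 and 27346 in deficient lungs (log2 fold change -0.16 ± 0.09, adjusted p = 0.478). Without deficient replicate 3 the median of the sterol genes was -0.02 and 12 of 20 were negative, and without deficient replicate 1 it was -0.29. The median of the fatty acid genes turned to 0.01 without deficient replicate 3, with 6 of 13 negative. The log2 fold changes were then -0.12 for Acat2, -0.10 for Sqle, -0.02 for Insig1, 0.06 for Srebf2, 0.01 for Srebf1, 0.11 for Me1 and -0.06 for Scd2. No member passed without deficient replicate 3, where 1.68% of all genes did, against 0.475% with every lung.

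**Figure D4:**
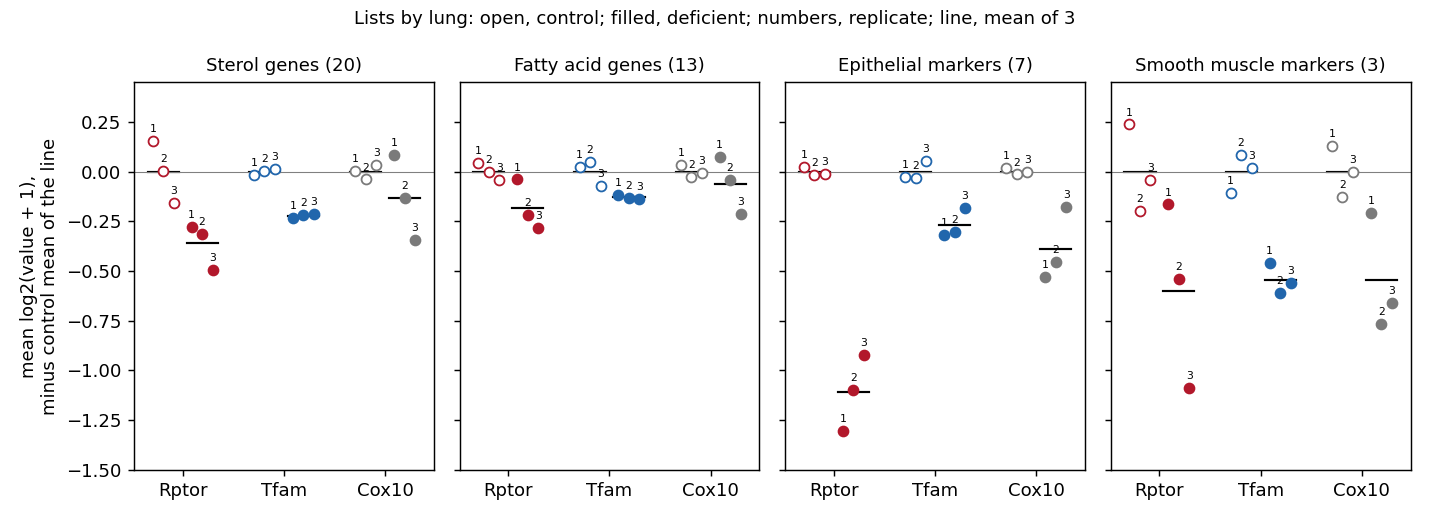
Mean log2(value + 1) of 4 gene lists in every lung, minus the control mean of its line (y axis), for the Rptor, Tfam and Cox10 lines (x axis); open points are control lungs, filled points deficient lungs, numbers replicates and black lines the means of 3. For the 20 sterol genes the deficient lungs lie between -0.49 and -0.28 in the Rptor line, between -0.23 and -0.21 in the Tfam line and between -0.34 and 0.08 in the Cox10 line.

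The comparison of the lines gave few differences that passed. Effects were compared between lines with a single fit over the 18 lungs and 14550 genes. Between Rptor and Cox10, 7.48% of all genes passed and 2 of 33 members did: Idi1, with a difference of -0.65 ± 0.19 (adjusted p = 0.0445), and Srebf1, with -0.34 ± 0.09 (adjusted p = 0.034). Both had a lower log2 fold change in the Rptor line. Between Rptor and Tfam, 11.2% of all genes passed and no member did, Idi1 being the member of smallest p with -0.55 ± 0.19 (adjusted p = 0.0671 in limma). With the replicate block Idi1 (-0.55 ± 0.17, adjusted p = 0.0488) and Fdps (-0.49 ± 0.15, adjusted p = 0.0393) passed between Rptor and Tfam, where 15.9% of all genes did. This block used the replicate numbers of all 3 lines, and nothing states that equal numbers mark littermates. Same-numbered lungs of the Tfam line had correlations of -0.312, -0.207 and 0.151. Without Cox10-deficient replicate 3, 6 members passed between Rptor and Cox10, where 12.5% of all genes did. No member passed there without Rptor control replicate 1, Rptor-deficient replicate 2 or 3, any Cox10 control lung or Cox10-deficient replicate 1. Of all genes, 4.66% to 7.37% passed in these fits. Between Tfam and Cox10, 0.055% of all genes and no member passed. For Rptor and Cox10, Rptor and Tfam, and Tfam and Cox10, edgeR gave 2, 0 and 0 members (7.48%, 11.3% and 0.055% of all genes). DESeq2 gave 2, 1 and 0 members (9.32%, 14.1% and 0.131% of all genes). For 31 of 33 members the effects in Rptor-deficient and Cox10-deficient lungs were not shown to differ.

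Rptor-deficient and Tfam-deficient lungs shared 4 sterol genes called lower, Insig1, Sqle, Cyp51 and Nsdhl, which were 4 of the 10 called in the Rptor line and 4 of the 7 called in the Tfam line. With limma no fatty acid gene was called in the Tfam line, so that none could be shared. Of the 14701 genes tested in both lines, 309 (2.1%) were called lower in both. Over all genes tested in each line, 2719 were called lower in the Rptor and 396 in the Tfam line. Most genes called lower in the Tfam line were thus also called lower in the Rptor line. The 4 of 7 sterol genes were no larger a share than 309 of 396. These lines have no samples in common. Cyp51 had log2 fold changes of -0.37 ± 0.08 and -0.31 ± 0.05, and Nsdhl of -0.37 ± 0.09 and -0.34 ± 0.07, in the Rptor and Tfam lines. Idi1 and Fdps, the 2 largest falls in the Rptor line, had -0.28 ± 0.10 and -0.09 ± 0.10 in the Tfam line and passed in neither the Tfam nor the Cox10 line.

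Markers of cell types also differed between control and deficient lungs. In Rptor-deficient lungs 7 of 7 epithelial markers (Epcam, Cdh1, Nkx2-1, Krt8, Krt18, Cldn6 and Foxa2) were called lower, with a median log2 fold change of -0.98. Their summed values were 27955 to 28998 in control lungs and 11200 to 14846 in deficient lungs. Among Tfam-deficient lungs 3 of 7 were called lower (median -0.29), with sums of 26787 to 28033 in control and 21471 to 23892 in deficient lungs. In the Cox10 line 1 of 7 was called lower (median -0.39), with sums of 21214 to 21602 in control and 14531 to 19210.1 in deficient lungs. No epithelial marker was at 0 in any lung. Relative to the control mean, the mean log2 value of the sterol genes in Rptor-deficient replicates 1, 2 and 3 was -0.28, -0.31 and -0.49. That of the epithelial markers was -1.30, -1.10 and -0.92. In Tfam-deficient replicates 1, 2 and 3 the sterol genes had -0.23, -0.22 and -0.21 and the epithelial markers -0.32, -0.30 and -0.18. In Cox10-deficient replicates they had 0.08, -0.13 and -0.34, and -0.53, -0.46 and -0.18. The part of epithelial cell number in the lower sterol and fatty acid genes was not tested.

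In Cox10-deficient lungs replicate 3, where the sterol genes were lowest, differed in other lists as well. Relative to the control mean, the mean log2 value of 4 endothelial markers was 0.12, 0.01 and 0.64 in deficient replicates 1, 2 and 3. It was 0.11, 0.08 and 0.56 for 3 macrophage and leukocyte markers, 0.16, 0.03 and 0.42 for 7 mesenchymal markers and -0.70, -0.29 and 0.67 for 6 markers of the distal tip and type 2 cells. Sftpc, the surfactant protein C gene of type 2 cells, had 1422, 1241 and 1419 in control and 386, 562 and 4084 in deficient lungs. In replicate 3, Sftpb, Abca3 and Lamp3 of this list were also above every control lung. Sox9 (1530) and Etv5 (8807) of the list were below every control lung there, with controls of 1853 to 1976 and 11412 to 11853. These genes are named here after their values were seen. The mean of 4 neuronal and glial markers was 0.74, -0.57 and -0.98, and that of 3 smooth muscle markers -0.21, -0.77 and -0.66. None of these lists had a marker called in this line. Their summed values in control and deficient lungs were 16765 to 17320.1 and 17187 to 26823 for endothelium, 998 to 1199 and 1271 to 1713 for macrophages and leukocytes, and 186208 to 217775 and 202530 to 285363 for mesenchyme. For the distal tip and type 2 cells they were 16483 to 16902 and 10393 to 17728, for neurons and glia 429.7 to 546 and 269 to 761, and for smooth muscle 11574 to 13345 and 7879 to 11833. No marker of these 6 lists was at 0. Their part in the Cox10 values was not tested.

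Other markers moved as well. In Rptor-deficient lungs 6 of 7 mesenchymal, 4 of 4 endothelial and 3 of 3 macrophage and leukocyte markers were called higher, with medians of 0.77, 0.34 and 0.77, and 2 of 2 proliferation markers were called lower with a median of -0.31. Summed values ranged from 208363 to 238481 in control and from 404720 to 433206 in deficient lungs for the mesenchymal list. They ranged from 24254 to 25529.9 and from 30867 to 34230.2 for the endothelial list, from 1278 to 1404 and from 2314 to 2642 for the macrophage list, and from 50453 to 56912 and from 41268 to 43673 for the proliferation list. Of 3 smooth muscle markers, Myh11 and Tagln were called lower and Acta2 higher in the Rptor line, and all 3 were called lower in the Tfam line (median -0.44). Their sums in the Tfam line were 20034 to 23031 in control and 15098 to 17651 in deficient lungs, and in the Rptor line 15002 to 20089 and 16782 to 24768. Of 6 markers of the distal tip and type 2 cells, 3 were called lower in the Rptor line (sums of 26606 to 32586 in control and 12248 to 15856 in deficient lungs), and 2 were called higher and 1 lower in the Tfam line. Of 3 mesothelial markers, Upk3b (0.70) and Wt1 (1.08) were called higher in the Rptor line, with sums of 2895 to 4100.1 in control and 5475 to 6175 in deficient lungs. The third, Msln, had 28.9, 38.0 and 43.8 in control and 10.2, 21.8 and 28.7 in Rptor-deficient lungs and did not pass (log2 fold change -0.93, adjusted p = 0.0856). No marker of these 7 lists was at 0, and their part in the results was not tested.

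Sterol genes also moved together between lungs of the same group. After the group mean of each gene was subtracted, the median correlation over the 190 pairs of sterol genes was 0.61 across the 18 lungs. For the 78 pairs of fatty acid genes it was 0.42, for the 260 mixed pairs 0.47, and over all pairs of the 14550 genes it was 0.00. A correlation above 0.5 was found in 62.6% of the sterol pairs and in 8.13% of all pairs. The values of a lung share its library, and the 3 deviations of a group sum to 0, so that these are descriptions.

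The mean of the sterol genes lay between -0.16 and 0.16 on the log2 scale around the group means in the Rptor line, between -0.02 and 0.01 in the Tfam line and between -0.21 and 0.21 in the Cox10 line. The lungs farthest out were Cox10-deficient replicates 1 and 3. Of the 14550 genes, 0.247% had a correlation above 0.8 with the mean of the sterol genes (the gene itself left out), among them 11 of 20 sterol genes and 2 of 13 fatty acid genes. Sqle reached 0.94, Msmo1 0.94 and Hmgcs1 0.92, and without the 2 farthest lungs these were 0.89, 0.94 and 0.84. Only these 3 of 20 sterol genes and no fatty acid gene stayed above 0.8 without those lungs, against 0.206% of all genes, so that the count of 11 rested on them. Acat2 went from 0.56 to 0.05 and Idi1 from 0.63 to 0.24. Acly (0.84) and Scd1 (0.81) were the fatty acid genes, at 0.65 and 0.56 without those lungs.

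Ebp, a sterol isomerase encoded on the X chromosome, ran against the rest. Its correlation with the mean of the other sterol genes was -0.80, and -0.54 without the 2 farthest lungs. In the Cox10 line Ebp had 453, 509 and 493 in control lungs and 433, 496 and 599 in deficient lungs, the highest value standing in the replicate where Sqle was lowest. In the Rptor line it had 555, 625 and 579 in control and 449.7, 500.1 and 538 in deficient lungs (log2 fold change -0.24 ± 0.09, adjusted p = 0.0759). Each deficient lung was below each control lung there. This also held in the Tfam line, where Ebp did not pass (log2 fold change -0.07 ± 0.07, adjusted p = 0.665 in limma). Stard4 had a correlation of 0.14 with the others, and of 0.47 without the 2 farthest lungs. Nsdhl, also encoded on the X chromosome, had 0.74, and 0.45 without those lungs.

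**Figure D5:**
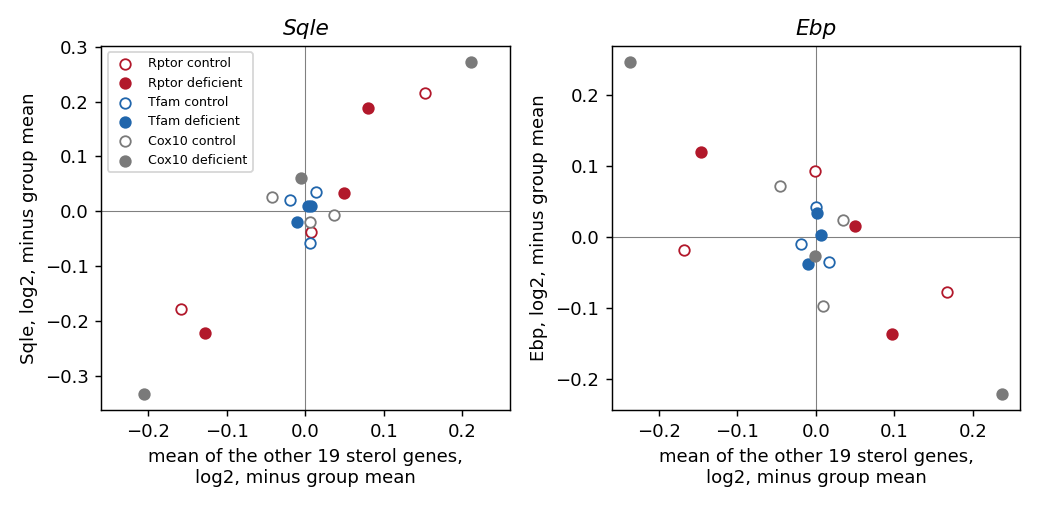
Log2 deviation of Sqle (left) and Ebp (right) from the group mean (y axis) against the mean deviation of the other 19 sterol genes (x axis) in 18 lungs; colours mark the lines, open points control and filled points deficient lungs. Sqle follows the other sterol genes (correlation 0.94) and Ebp runs against them (-0.80), with Cox10-deficient replicates 1 and 3 at the ends.

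Other lists varied with the sterol mean. The mean of the fatty acid genes had a Pearson correlation of 0.80 with it (Spearman 0.52) over the 18 lungs, and 0.60 without the 2 farthest lungs. Within the lines it was 0.71 in the Rptor, -0.64 in the Tfam and 0.97 in the Cox10 line, with 6 lungs each. For the epithelial markers it was -0.65 (Spearman -0.19), and -0.37 without the 2 farthest lungs, so that the relation rested on them. Within the Rptor, Tfam and Cox10 lines it was -0.47, 0.66 and -0.92. For the smooth muscle markers it was 0.69 (Spearman 0.71), 0.68 without them, and 0.73, 0.24 and 0.74 within the Rptor, Tfam and Cox10 lines. For the distal tip and type 2 list it was -0.70 (-0.24 without the 2 farthest lungs), for endothelium -0.59 (-0.13), for macrophages and leukocytes -0.58 (-0.25), for mesenchyme -0.41 (-0.08) and for neurons and glia 0.42 (-0.27). For the erythroid list, of which 1 gene was tested, it was -0.58 (-0.65). Within the Rptor line it was -0.90 for macrophages and leukocytes and -0.91 for the erythroid gene, within the Tfam line -0.15 and 0.08, and within the Cox10 line -0.67 and -0.36. For mesothelium and proliferation it was -0.13 and 0.01 over the 18 lungs. Within the Rptor, Tfam and Cox10 lines it was -0.84, 0.22 and 0.18 for mesothelium and 0.17, -0.46 and -0.07 for proliferation. For Xist, the RNA made from the inactive X chromosome, it was 0.22 (-0.20 without the 2 farthest lungs), and -0.39, -0.04 and 0.72 within the Rptor, Tfam and Cox10 lines. Xist ran from 24.8 to 35799 in the Rptor, from 5265 to 43497 in the Tfam and from 13.1 to 40297 in the Cox10 line, so that lungs within a line differed in it. With Xist as a covariate 9 sterol and 7 fatty acid genes passed for Rptor, 5 and 0 for Tfam and 0 and 0 for Cox10. The shares of all genes called were then 30.2%, 5.67% and 0.783%, against 34.8%, 4.66% and 0.475% without it. No p is given for the correlations. The members were chosen with earlier results of these data known, which also limits the p-values given for members elsewhere.

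Of 45 further genes of lipid metabolism, 43 were tested. In Rptor-deficient lungs 13 were called lower and 7 higher, against 18.2% and 16.6% of all genes tested. The rises were thus at the share found over all genes. The 3 largest falls were Elovl7, an elongase, with 274, 272 and 256 in control and 108, 134 and 117 in deficient lungs (log2 fold change -1.16 ± 0.12), Acsl5, an acyl-CoA synthetase (-0.64 ± 0.07), and Lpcat1, a lysophospholipid acyltransferase of surfactant synthesis (-0.62 ± 0.06). The 3 largest rises were Lpin1, a phosphatidate phosphatase that also restrains SREBP (0.89 ± 0.12), Mylip, which marks lipoprotein receptors for degradation (0.86 ± 0.09), and Abca1, the cholesterol exporter (0.70 ± 0.06). Adjusted p in limma lay between 0.000189 and 0.00105 for these 6. Lpin1 had 164, 185 and 178 in control lungs and 363, 324 and 292 in deficient lungs, with no overlap.

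By group, 4 of 10 genes of sterol transport and storage were called higher and 1 lower in the Rptor line, and 6 of 11 genes of fatty acid synthesis and elongation were called lower and 1 higher. Of 5 genes of SREBP processing 1, Lpin1, was called. Scap, which escorts SREBPs, had a log2 fold change of -0.06 and Insig2 of 0.07. In the Tfam line 3 of the 43 were called, where 2.63% of all genes were called lower and 2.03% higher: Mylip (0.31 ± 0.07) and Acsl4 (0.30 ± 0.07) higher, and Tecr, a reductase of elongation, lower (-0.32 ± 0.08). Mylip had 483, 500.2 and 466 in control and 623, 572 and 608 in Tfam-deficient lungs, so that the groups were apart. In the Cox10 line none of the 43 was called in limma, 4 having an unadjusted p below 0.05, against 13% of all genes.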

How the data were processed

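RNA-Seq of whole lungs at 14.5 dpc was analysed from 3 tables, 1 per line, each normalised on its own. Sample titles gave the groups and the replicate numbers. The 33 members and the lists were chosen with earlier results of these data known.

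The deposited values are a signal, in which the authors divided the read count of each gene by a size factor of the sample. The submitters' processing notes name Trim Galore, HISAT2, featureCounts, DESeq2 and mm10, without versions. In every lung 100% of the values were whole multiples, within 0.1, of a step of 0.978 to 1.02, and the reads recovered numbered 27675600 to 29704700 per lung. The deposited log2 fold changes, p-values and adjusted p-values of the authors' comparisons were not used.

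Values were analysed as log2(value + 1) in limma 3.58.1 (R 4.3.3; lmFit, eBayes with trend), per line with genotype as the only term, for genes with a value of at least 10 in at least 3 of 6 lungs. P-values were two-sided and adjusted by the Benjamini-Hochberg method over all genes tested. The scale understates changes of low genes. The code was tested on simulated data. The test planned for counts, edgeR 4.0.16, and DESeq2 1.42.0 were run on the recovered reads as alternatives.

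Correlations of same-numbered control and deficient lungs (deviations from group means over all genes) were 0.221, 0.330 and 0.259 in the Rptor line, all above 0.1, so that the block is given beside results there. In the Tfam line they were -0.312, -0.207 and 0.151, and in the Cox10 line 0.447, 0.202 and 0.0488, where the block is given as an alternative only.

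All members could be named. Values in every lung are given for Srebf1, Srebf2 and Insig1, for up to 4 members per line and list with the largest change past the threshold (or the 2 of smallest p), and, chosen after their values were seen, for Ebp and for Scd1 in the Rptor line. Of further pathway genes, up to 3 rises and 3 falls per line were named, and Scap and Insig2 were named in addition after their values were seen. Exon lengths came from GENCODE M21 and promoters and positions from RefSeq GRCm38.p6.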

Additional observations from a re-analysis of the deposited data

Results flagged for a closer look

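The effects of a deletion on 2 members differed between lines in the model of all 18 lungs, 2 of 33 against 7.48% of all genes tested, a share no larger than that of other genes. Idi1 had a log2 fold change of -0.84 in the Rptor line and -0.18 in the Cox10 line, a difference of -0.65 (adjusted p = 0.0445 in limma, with a range of 0.0042 to 0.115 over 27 alternatives). It was below every control lung in 3 of 3 Rptor-deficient lungs. Srebf1 had -0.33 in the Rptor line and 0.01 in the Cox10 line, a difference of -0.34 (adjusted p = 0.034 in limma, with a range of 0.00218 to 0.0903 over 27 alternatives). Idi1 no longer passed under 14 of these alternatives, 12 of which left out 1 lung, among them each Cox10 control lung and Rptor-deficient replicates 1, 2 and 3. Srebf1 no longer passed under 8, all of which left out 1 lung, among them each Cox10 control lung and Rptor-deficient replicates 2 and 3.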

How the results depend on the processing

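No value of a member past the threshold changed sign under any alternative. With an adjusted p below 0.01, 3 sterol and 2 fatty acid genes passed in the Rptor line, 2 sterol genes in the Tfam line, and no member in the difference between Rptor and Cox10. No share of all genes is given at this threshold, so that these counts stand without a comparison. The Tfam sterol count of 7 was 4 with scaling to library totals, 4 without a filter on low values and 0 with all 18 lungs in a single fit. Of all genes, 4.68%, 3.09% and 2.70% were called in these fits, against 4.66% in the main fit. The Tfam fatty acid count of 0 was 1 with the replicate block (5.33% of all genes) and 2 with DESeq2 (5.61%). The difference between Rptor and Tfam gave 2 members with the replicate block (15.9% of all genes) and 1 with DESeq2 (14.1%). That between Rptor and Cox10 gave 1 without a filter (5.41% of all genes) and 1 with Xist as a covariate (7.22%). In the other comparisons the replicate block moved no count by over 1.5 times: it gave 14 sterol and 8 fatty acid genes in the Rptor line, 8 sterol genes in the Tfam line and 0 members in the Cox10 line. With the block 38.6%, 5.33% and 0.321% of all genes were called in these lines. The cause of these shifts was not tested. Trimmed means, a pseudocount of 0.1 and edgeR left every count within 1.5 times of that reported.

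Leaving out each lung gave 6 to 14 sterol and 2 to 8 fatty acid genes for Rptor, 2 to 9 and 0 to 5 for Tfam, and 0 to 0 of either for Cox10. The differences gave 0 to 6 members between Rptor and Cox10 (6 without Cox10-deficient replicate 3), 0 to 2 between Rptor and Tfam and 0 to 0 between Tfam and Cox10. With scaling to library totals Pmvk turned to 0.0032 in the Rptor line and Acss2 to 0.0016 in the Tfam line, and Acss2 was 0.052 there with Xist as a covariate. Members that changed sign on leaving out 1 lung, with their range over these fits, were few in the Rptor and Tfam lines, and none was past the threshold. In the Rptor line Pmvk ran from -0.075 to 0.074 and Fads1 from -0.0083 to 0.10. In the Tfam line Fdps ran from -0.15 to 0.029, Stard4 from -0.13 to 0.013, Acss2 from -0.098 to 0.14, Me1 from -0.12 to 0.0032 and Elovl6 from -0.0050 to 0.033. In the Cox10 line Srebf2 ran from -0.16 to 0.057, Mvk from -0.15 to 0.0028, Fdps from -0.36 to 0.0022, Lss from -0.26 to 0.087, Msmo1 from -0.26 to 0.029, Nsdhl from -0.27 to 0.040, Ebp from -0.064 to 0.17, Srebf1 from -0.017 to 0.037, Acss2 from -0.016 to 0.22, Acaca from -0.14 to 0.068, Fasn from -0.17 to 0.024, Elovl1 from -0.048 to 0.14, Scd1 from -0.66 to 0.039 and Fads1 from -0.047 to 0.11. In the Cox10 line 11 of these 14 members changed sign without deficient replicate 3. The effect of counting error on the calls was not tested, and the lowest value of any member was 193.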
